A study of Rattus norvegicus with 15 samples.

Results

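The 9 genes described here belong to the integrated stress response: Ddit3, which encodes CHOP, Atf4, Atf5, Atf3, Gdf15, Trib3, Chac1, Asns and Phgdh. They were chosen by name, with earlier results of these data known, and were found through the platform annotation symbol of their probe sets. Each had exactly 1 probe set, so that they are 9 of the 14506 genes with a usable symbol. Their levels were read on 15 Affymetrix whole-transcript arrays, 1 for each microfluidic biochip of primary rat hepatocytes perfused at 25 µl/min. After adhesion the cells received the solvent DMSO (n = 5), 10 µM flutamide (n = 6) or 100 µM flutamide (n = 4) for 24 h. Flutamide is a nonsteroidal antiandrogen with known liver toxicity, and no genotype or strain difference separates the groups. The biochips are numbered in their titles from 10 to 16 (7 arrays, called run 1 here) and from 20 to 27 (8 arrays, called run 2). Run 1 held DMSO 10 and 11, 10 µM 12 to 14 and 100 µM 15 and 16, and run 2 held DMSO 20 to 22, 10 µM 23 to 25 and 100 µM 26 and 27. The labels do not say what the number runs stand for, nor whether biochips held cells of separate animals. The p-values therefore reflect spread among these samples alone, and that spread may be technical.

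In the integrated stress response, kinases that sense unfolded protein in the endoplasmic reticulum, lack of amino acids, lack of heme or viral RNA phosphorylate the translation factor eIF2alpha. General protein synthesis then slows while the Atf4 mRNA is translated more, so that the Atf4 transcript level on an array is no measure of ATF4 protein. ATF4 and its partners raise transcription of Ddit3, Atf3, Trib3, Chac1 and genes of amino acid supply such as Asns and Phgdh, and in the liver the pathway is known from drug injury, protein misfolding and mitochondrial dysfunction.

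To show the letters at the start of genes that ATF4 or CHOP is known to act on, the 250 bases before the annotated start were read from RefSeq (assembly GRCr8), which held an entry for 8 of the 9 members. Both strands were searched for TGATGNAAN (the C/EBP-ATF response element, CARE), TGANTCA (AP-1), TGACGTCA (CRE) and the endoplasmic reticulum stress element. These patterns differ in their letters but may overlap in a promoter, and they were present in 3.38%, 6.34%, 1.59% and 0.0657% of 33469 promoters of the same length, respectively. The 3 promoters below are those of Ddit3, on which the relation between biochips rests, and of the 2 members whose window held a CARE. Each is printed 5′ to 3′ in the direction of the gene, and the capitals mark the match.
Ddit3: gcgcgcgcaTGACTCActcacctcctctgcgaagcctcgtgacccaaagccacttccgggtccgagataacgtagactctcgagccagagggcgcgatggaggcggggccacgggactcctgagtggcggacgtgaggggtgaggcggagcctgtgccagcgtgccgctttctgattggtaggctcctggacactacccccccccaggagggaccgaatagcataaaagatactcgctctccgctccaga
Trib3: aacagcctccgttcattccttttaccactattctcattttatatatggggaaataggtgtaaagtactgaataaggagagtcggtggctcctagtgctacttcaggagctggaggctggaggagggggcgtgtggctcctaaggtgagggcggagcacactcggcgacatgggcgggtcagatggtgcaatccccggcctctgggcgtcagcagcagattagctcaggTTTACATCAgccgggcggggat
Chac1: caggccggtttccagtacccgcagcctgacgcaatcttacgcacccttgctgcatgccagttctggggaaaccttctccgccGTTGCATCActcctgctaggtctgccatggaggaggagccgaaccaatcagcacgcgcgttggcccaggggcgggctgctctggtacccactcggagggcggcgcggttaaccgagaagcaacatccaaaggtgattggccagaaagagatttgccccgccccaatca

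The Ddit3 window lies at chr7:65001445-65001694 on the + strand, and its AP-1 match starts 241 bases before the gene start. The Trib3 window lies at chr3:161275534-161275783 on the - strand, with a CARE on the opposite strand from 22 to 14 bases before the start. For Chac1 the window is chr3:126795881-126796130 on the + strand, with a CARE on the opposite strand from 168 to 160 bases before the start. The windows of Atf5 and Phgdh each held an AP-1 match, and no pattern was found in those of Atf4, Asns and Gdf15. A match is a description of letters and not a site of binding.

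The arrays were alike in scale, with medians of 5.38 to 5.51 log2 units, and pairs of arrays correlated between 0.952 and 0.991 over all 29214 probe sets. Arrays 23 and 24 (10 µM) and 15 (100 µM) had the lowest median correlations with the others, 0.967, 0.978 and 0.971, against 0.983 to 0.987 for the other 12. All 10 hepatocyte markers measured, such as Alb and Ttr, lay above the median of all probe sets, with mean levels of 10.58 to 10.84 in DMSO, 10.51 to 11.03 at 10 µM and 10.35 to 10.58 at 100 µM. Of 13 Kupffer cell and macrophage markers measured, 9 lay above that median. Their mean level was 6.09 to 7.0 in DMSO, 5.87 to 6.44 at 100 µM and 5.88 to 6.33 in 5 of the 10 µM arrays, and 7.46 in array 23. Above the median were also 3 of 9 stellate cell, 0 of 5 endothelial, 1 of 5 cholangiocyte, 0 of 4 lymphocyte and 1 of 2 red cell markers.

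Ddit3 (probe set 10895861) encodes CHOP, the transcription factor linked to cell death under prolonged stress. Its log2 value was 7.93 and 8.09 in the DMSO biochips of run 1 and 8.87, 8.81 and 7.47 in those of run 2. At 10 µM the lowest of the 6 values was 8.14, the median 9.21 and the highest 10.52, and at 100 µM the values were 9.37 and 8.64 in run 1 and 8.39 and 10.17 in run 2. Within each run every 10 µM biochip lay above every DMSO biochip, an upward order that 1.04% of genes showed in both runs, although the groups overlapped when the runs were pooled, and array 26 at 100 µM lay below 2 of the 3 DMSO biochips of its run. The estimated change was 1.14 log2 units (SE 0.37, 2.21-fold) at 10 µM and 0.98 (SE 0.41, 1.98-fold) at 100 µM. Neither passed the threshold over all 14506 genes (limma adjusted p = 0.447 and 0.708). When treatment labels were exchanged within runs, the exact two-sided permutation test gave p = 0.01 at 10 µM, where 0.005 is the smallest it can give, and p = 0.1 at 100 µM, where 0.0167 is the smallest. Both dose comparisons share the 5 DMSO arrays, so that their values, here and for the other members, are not independent. In RNA from whole biochips, more cells with the transcript and more transcript per cell cannot be told apart.

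The 10 µM values of Ddit3 were highest in arrays 23 and 24, with 10.52 and 10.02, which are 2 of the 3 arrays of lowest correlation with the rest, and array 23 also had the highest mean levels of macrophage (7.46), hepatocyte (11.03), stellate cell (5.4) and endothelial (5.07) markers. The remaining one, array 15, had 9.37, the highest value of run 1. Without array 23 the change at 10 µM was 0.94. Without arrays 15, 23 and 24, a choice made after the values were seen, it was 0.78 at 10 µM and 0.80 at 100 µM. The part of array quality and of these cell types in the change was not tested. Ddit3 had the widest scatter of the members, and its 15 values spanned 3.05 log2 units. Its residual SD in the fit with group and run terms was 0.681, above that of 99.0% of genes (median 0.190). At 10 µM the difference from DMSO was 0.61 in run 1 and 1.60 in run 2, and the difference between these 2 effects, 0.99 (SE 0.73), did not pass the test (limma adjusted p = 0.653).

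**Figure D1:**
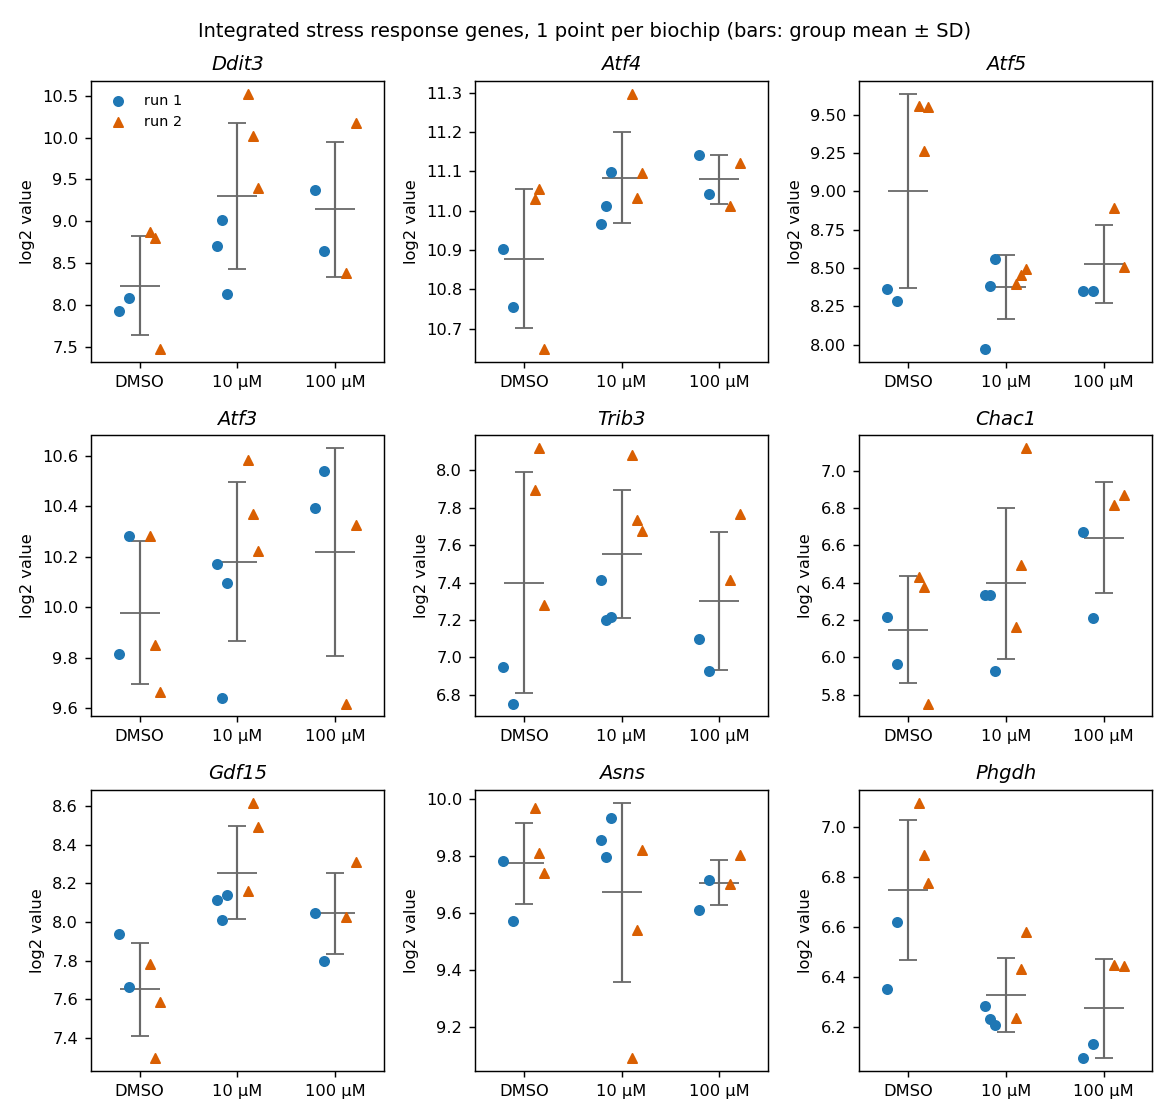
Log2 value of each of the 9 genes (y axes, scales differ between panels) in each biochip, by group (x axis: DMSO, 10 µM and 100 µM flutamide) and by run (colour and symbol), with bars for the group mean ± SD. Ddit3 spans 3.05 log2 units over the 15 biochips, every 10 µM value of Gdf15 lies above every DMSO value, and the DMSO values of Atf5, Phgdh and Trib3 in run 2 lie above those in run 1.

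Atf4 (probe set 10897760) encodes the central factor of the response. DMSO biochips had 10.90 and 10.75 in run 1 and 11.03, 11.06 and 10.65 in run 2. The 10 µM values had a lowest of 10.97, a median of 11.06 and a highest of 11.30, and the 100 µM values were 11.14 and 11.04 in run 1 and 11.01 and 11.12 in run 2. Treated and DMSO groups were apart in run 1 at both doses, where 13.3% of genes lay higher without overlap at 10 µM and 18.5% at 100 µM, and overlapped in run 2, where array 22 was the low one. The estimates were the same at both doses, 0.21 (SE 0.085 at 10 µM and 0.094 at 100 µM), with limma adjusted p = 0.560 and 0.726. Atf4 was also among the less scattered members, with a residual SD of 0.130.

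Atf5 encodes a related factor, likewise translated under eIF2alpha phosphorylation and tied to the mitochondrial stress response. In DMSO its values were 8.37 and 8.29 in run 1 and 9.56, 9.26 and 9.55 in run 2. At 10 µM they ranged from 7.97 over a median of 8.42 to 8.56, and at 100 µM they were 8.35 and 8.35 in run 1 and 8.89 and 8.51 in run 2. Thus the 3 DMSO biochips of run 2 stood above all other arrays, and in run 1 treated and DMSO biochips overlapped. Lower values without overlap in run 2 were seen in 8.53% of genes at 10 µM and in 14.4% at 100 µM. The pooled estimates, -0.58 (SE 0.17) at 10 µM and -0.43 (SE 0.19) at 100 µM, came from run 2: the difference from DMSO was -0.022 in run 1 and -1.01 in run 2 at 10 µM, and 0.024 and -0.76 at 100 µM. The difference of the 10 µM effect between runs was -0.99 (SE 0.22, unadjusted p = 0.000850), which did not pass after adjustment in limma (adjusted p = 0.208), and for the pooled estimates the adjusted p was 0.399 and 0.726.

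Atf3, an immediate stress factor that dimerises with other bZIP proteins, had values of 9.66 to 10.28 in DMSO, 9.64 to 10.58 at 10 µM and 9.62 to 10.54 at 100 µM. The pooled groups overlapped, with estimates of 0.20 (SE 0.19) and 0.24 (SE 0.21) and limma adjusted p = 0.872 and 0.859. In run 1 both 100 µM values, 10.39 and 10.54, lay above both DMSO values, 9.81 and 10.28, as 18.5% of genes did in that direction, and the change was 0.42 there and 0.038 in run 2. The sign at 10 µM differed between runs, -0.078 in run 1 and 0.46 in run 2.

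Gdf15 (probe set 10787517) encodes a secreted stress hormone that lowers food intake through the brainstem. DMSO biochips had values of 7.94 and 7.66 in run 1 and 7.78, 7.30 and 7.58 in run 2. The lowest 10 µM value was 8.01, the median 8.15 and the highest 8.62, and the 100 µM values were 8.04 and 7.80 in run 1 and 8.03 and 8.31 in run 2. All 6 biochips at 10 µM therefore lay above all 5 DMSO biochips, an order that 0.414% of genes showed, whereas array 16 at 100 µM lay below DMSO array 10. The change was 0.62 (SE 0.13, 1.53-fold) at 10 µM and 0.41 (SE 0.15, 1.32-fold) at 100 µM, with limma adjusted p = 0.285 and 0.682. The exact within-run permutation p was 0.005, the smallest possible, at 10 µM and 0.05 at 100 µM. The change was 0.29 in run 1 and 0.87 in run 2 at 10 µM, and the difference between the runs did not pass the test (limma adjusted p = 0.440).

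Trib3 encodes a pseudokinase that binds ATF4 and CHOP and dampens the response. Its DMSO values were 6.95 and 6.75 in run 1 and 7.90, 8.12 and 7.28 in run 2. The 10 µM values ran from 7.20 over a median of 7.54 to 8.08, and the 100 µM values were 7.10 and 6.93 in run 1 and 7.41 and 7.76 in run 2. The doses overlapped with DMSO, and the estimates of 0.22 (SE 0.14) and -0.031 (SE 0.16) had limma adjusted p = 0.775 and 0.979. Within run 1 (13.3% of genes in that direction) the 3 values at 10 µM, 7.41, 7.20 and 7.22, stood above both DMSO values, whereas in run 2 they overlapped with them.

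Chac1 encodes an enzyme that degrades glutathione. Its values were 5.75 to 6.43 in DMSO, 5.93 to 7.12 at 10 µM, and 6.67 and 6.21 in run 1 and 6.82 and 6.87 in run 2 at 100 µM. The 2 biochips of run 2 at 100 µM lay above the 3 DMSO biochips of that run, an upward order that 14.8% of genes showed, and the groups otherwise overlapped. The estimate was 0.52 (SE 0.19, 1.44-fold) at 100 µM and 0.28 (SE 0.18) at 10 µM. Neither estimate passed the threshold (limma adjusted p = 0.682 and 0.770), and the interval of the difference between doses, -0.15 to 0.65, included 0.

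Asns and Phgdh stand for the amino acid arm: Asns makes asparagine, and Phgdh catalyses the first step of serine synthesis from glycolysis. Phgdh (probe set 10825328) had values of 6.35 and 6.62 in the DMSO biochips of run 1 and 7.10, 6.89 and 6.78 in those of run 2. The 10 µM values were lowest at 6.21, with a median of 6.26 and a highest of 6.58, and the 100 µM values were 6.08 and 6.13 in run 1 and 6.45 and 6.44 in run 2. In both runs every flutamide biochip lay below every DMSO biochip of the same run, an order in the downward direction that 0.152% of genes showed. The estimates were -0.39 (SE 0.09, 1.31-fold lower) at 10 µM and -0.44 (SE 0.10, 1.36-fold lower) at 100 µM, with limma adjusted p = 0.287 and 0.429. At both doses the exact within-run permutation p was the smallest possible, 0.005 and 0.0167. Asns had values of 9.57 to 9.97 in DMSO, 9.09 to 9.93 at 10 µM and 9.61 to 9.80 at 100 µM, with the lowest value in array 23. Its estimates were -0.11 (SE 0.13) and -0.076 (SE 0.15), and without array 23 the first was 0.018. By run, the 10 µM difference of Asns was 0.18 in run 1 and -0.36 in run 2. In run 1 its 10 µM values lay above both DMSO values, an order 13.3% of genes showed in that direction.

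Over the 9 members, none passed the adjusted threshold at either dose, as did 0% of all genes (0 of 14506; limma). At an unadjusted p under 0.05 there were 5 members at 10 µM, Ddit3, Atf4 and Gdf15 with higher and Atf5 and Phgdh with lower values, where 7.65% of all genes reached it (3.83% higher and 3.82% lower). At 100 µM there were 6, the same 5 and Chac1, where 6.85% of genes did (3.43% higher and 3.42% lower). The members and the gene lists below were chosen with earlier results of these data known. These shares and those below are therefore no test of a set. The estimate was above 0 for 6 of the 9 at 10 µM (49.1% of genes) and for 5 of the 9 at 100 µM (55.7% of genes), with medians of 0.21 at both doses against -0.0027 and 0.019 for all genes. The exact within-run permutation test was run for all 9 members, and its p-values were not adjusted for their number. For members not given above, its p at 10 µM was 0.015 for Atf4, 0.05 for Atf5 and 0.21 for Trib3. It was 0.26 for Atf3, 0.265 for Chac1 and 0.575 for Asns. At 100 µM it was 0.0333 for Chac1, 0.0667 for Atf5, 0.1 for Atf4, 0.333 for Atf3, 0.4 for Asns and 0.9 for Trib3. The estimates, none of which passed, did not share 1 sign. Those of Ddit3, Atf4, Atf3, Gdf15 and Chac1 were above 0 at both doses, and those of Atf5, Phgdh and Asns were below 0. Trib3 was above 0 at 10 µM and below 0 at 100 µM.

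**Figure D2:**
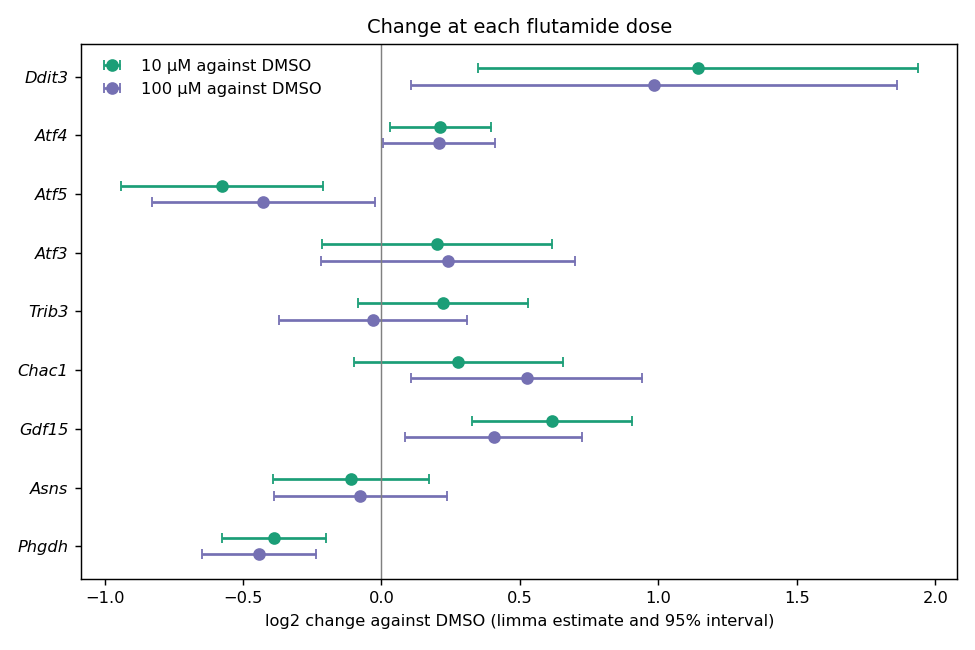
Limma estimate of the log2 change against DMSO (x axis, log2 units) for each gene (y axis) at 10 µM and 100 µM flutamide, with 95% intervals not adjusted for the number of genes. The intervals of Ddit3 (1.14 and 0.98) and Gdf15 (0.62 and 0.41) lie above 0 and those of Phgdh (-0.39 and -0.44) lie below 0 at both doses, while those of Atf3, Trib3 and Asns cross 0.

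Whether the higher dose gave a larger response was asked by comparing 100 µM with 10 µM. No member passed, nor did any gene (0%), and no member had an unadjusted p under 0.05, which 4.98% of genes had (limma adjusted p at least 0.930 for the members). For Ddit3 the difference was -0.16 with an interval of -1.0 to 0.68, so that a difference of 1 log2 unit in the downward direction lay at the edge of the interval. The interval was -0.52 to 0.10 for Gdf15, -0.25 to 0.14 for Phgdh, -0.20 to 0.19 for Atf4 and -0.58 to 0.07 for Trib3. Within those limits, no further difference at the higher dose was detectable in these genes.

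Whether the genes differed between the number runs, irrespective of dose, was asked in the same fit. Trib3 rose by 0.68 (SE 0.12, 1.60-fold) from run 1 to run 2 over the 3 groups (limma adjusted p = 0.0253), and it was the only member of the 9 to pass, where 0.545% of genes (79) did. The call was lost in 7 of the 15 fits that left out 1 array each, those without DMSO 10, 11 or 20, 10 µM 13 or 14 and 100 µM 16 or 27, with estimates of 0.61 to 0.73 over all 15, and also without arrays 15, 23 and 24 together (0.70, limma adjusted p = 0.0655). Estimates for Ddit3 (0.75, SE 0.32), Atf5 (0.52, SE 0.15), Phgdh (0.30, SE 0.07) and Chac1 (0.30, SE 0.15) were above 0 but did not pass, and the limma adjusted p was 0.399, 0.152, 0.0927 and 0.496. At an unadjusted p under 0.05 there were 4 members, where 11.0% of genes reached it, and 7 of the 9 estimates were above 0, against 50.8% over all genes. In the untreated state, all 3 DMSO biochips of run 2 lay above both of run 1 for Trib3, Atf5 and Phgdh, an order 15.6% of genes showed in that direction. What differed between the runs was not tested. In the difference of the dose effect between runs, no member passed at either dose, against 0.0414% of genes (6) at 10 µM and 0.00689% (1) at 100 µM. An unadjusted p under 0.05 was reached there by 3 members at 10 µM, Atf5, Gdf15 and Asns, where 10.2% of genes did, and by Atf5 alone at 100 µM, where 6.08% did.

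The other arms of stress signalling, taken from 8 gene lists, gave background to this. In the ATF6 and IRE1 branch, which raises chaperones of the endoplasmic reticulum, all 20 measured genes had a higher estimate in run 2 than in run 1, with a median of 0.31. An unadjusted p under 0.05 was reached by 14 of them, against 4.73% of all genes in that direction, and none passed after adjustment. Pdia4 and Hspa5, a disulfide isomerase and the chaperone BiP, had 0.78 (SE 0.17, limma adjusted p = 0.0564) and 0.38 (SE 0.09, limma adjusted p = 0.0725), and Creld2 had 0.55 (SE 0.12, limma adjusted p = 0.0654). These 3 were picked after their values were seen. Over all 8 lists, 81 of 125 genes had a higher estimate in run 2, against 50.8% of all genes. The counts of higher estimates were 3 of 15 in the list around eIF2alpha, 5 of 13 in the mitochondrial list, 6 of 10 partner factors, 8 of 13 amino acid transporters, 12 of 20 in the list of tRNA synthetases, 10 of 13 in serine, glycine and proline synthesis and 17 of 21 other ATF4 and CHOP targets.

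**Figure D3:**
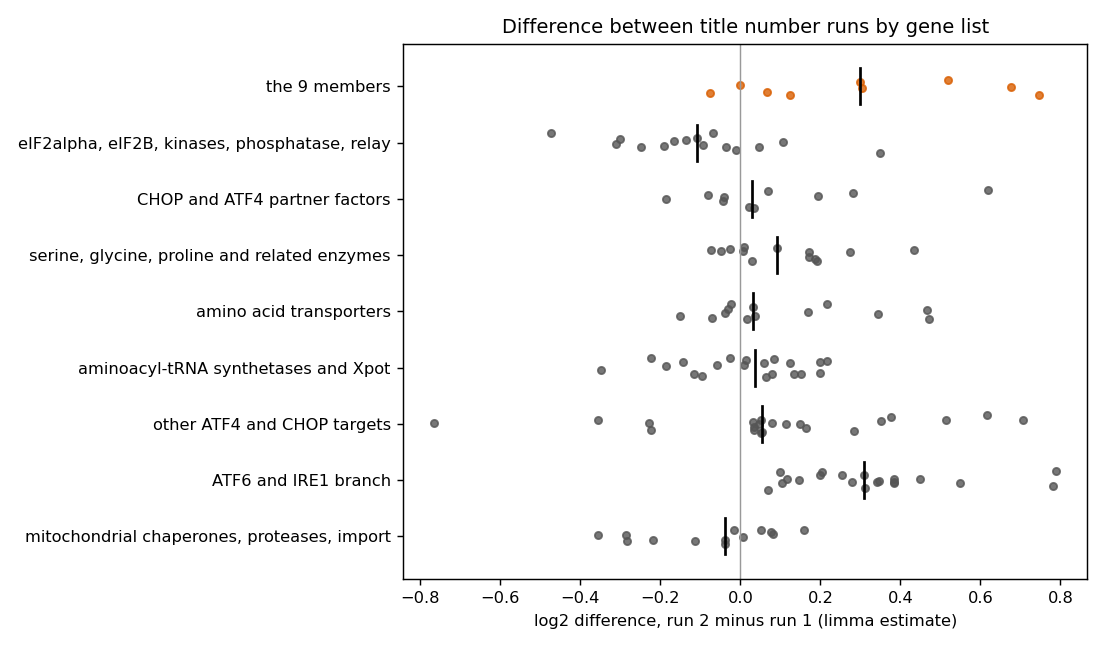
Limma estimate of the log2 difference between runs (run 2 minus run 1, x axis) for each gene of the 9 members and of 8 further lists (y axis), 1 point per gene and a black line at the list median. The 20 measured genes of the ATF6 and IRE1 branch all lie above 0, with a median of 0.31, 12 of the 15 genes around eIF2alpha lie below 0, and Trib3 at 0.68 is the member that passed the test.

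Against DMSO, none of the 125 measured genes of the 8 lists (of 133 entries) passed at either dose. Over all genes, estimates were above 0 for 49.1% at 10 µM and 55.7% at 100 µM. A list of 15 genes held eIF2alpha itself, its kinases and phosphatase subunits, the exchange factor eIF2B and the mitochondrial relay proteins Oma1 and Dele1. Of these, 6 had a higher estimate at 10 µM and 7 at 100 µM. Ppp1r15a, which encodes the phosphatase subunit GADD34 that restores translation, had the lowest p at both doses, with 0.53 (SE 0.18) at 10 µM and 0.53 (SE 0.20) at 100 µM (limma adjusted p = 0.487 and 0.682). Among 10 partner factors, 7 had a higher estimate at each dose, and the lowest p was that of Jun at 10 µM, with 0.35 (SE 0.09, limma adjusted p = 0.35) and of Nupr1 at 100 µM, with 0.30 (SE 0.15).

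The lists of amino acid supply held more lower than higher estimates. The list of serine, glycine and proline synthesis, which also holds transaminases and enzymes of folate and cysteine metabolism, had 10 of 13 genes with a lower estimate at 10 µM and 11 at 100 µM, with medians of -0.19 and -0.15. The lowest p at 10 µM was that of Mthfd1l, a mitochondrial enzyme of folate metabolism, with -0.53 (SE 0.13, limma adjusted p = 0.317), from -0.13 in run 1 and -0.85 in run 2, and at 100 µM that of Cth, with -0.54 (SE 0.26). Of 13 amino acid transporters, 11 and 9 had a lower estimate. The genes of lowest p were Slc3a2, the heavy chain of several such transporters, with -0.46 (SE 0.17) at 10 µM, and Slc38a2 with 0.26 (SE 0.12) at 100 µM. By run, Slc3a2 had 0.060 in run 1 and -0.87 in run 2, and Slc38a2 had 0.49 and 0.063. Of 20 genes made up of aminoacyl-tRNA synthetases and the tRNA exportin Xpot, 16 and 15 had a lower estimate, and the lowest p was that of Vars1 at -0.31 (SE 0.11) at 10 µM and of Kars1 at 0.17 (SE 0.064) at 100 µM. For the genes named from these 3 lists the limma adjusted p was 0.317 to 0.736. The 10 µM effect was lower in run 2 than in run 1 for 11 of 13, 11 of 13 and 20 of 20 genes, respectively. The median differences were -0.48, -0.65 and -0.49, against 0.022 for all genes. An unadjusted limma p under 0.05 in that direction was reached by 3, 5 and 11, against 6.68% of all genes. None passed after adjustment. Over all 8 lists the 10 µM effect was lower in run 2 for 92 of 125 genes.

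Other known targets of ATF4 and CHOP had 14 of 21 higher estimates at 10 µM and 11 at 100 µM, and the genes of lowest p were Rhbdd1 with 0.43 (SE 0.14) at 10 µM and Ddit4, an inhibitor of mTOR signalling, with 0.39 (SE 0.16) at 100 µM. In the ATF6 and IRE1 branch 9 of 20 were higher at each dose, and the genes of lowest p were Atf6b with -0.26 (SE 0.13) and Xbp1 with -0.34 (SE 0.17). Mitochondrial chaperones, proteases, prohibitins and import subunits had 2 of 13 higher at each dose, and Phb1, a prohibitin with the lowest p at both doses, had -0.40 (SE 0.16) and -0.25 (SE 0.18). Limma adjusted p-values of the genes named from these 3 lists were 0.450 to 0.814.

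How far the other 8 members followed Ddit3 from biochip to biochip was examined over the 15 arrays. In the values as they stand, Pearson's r was 0.786 for Atf4 (Spearman's rho 0.725, permutation p = 0.000410), 0.618 for Trib3 (rho 0.589, p = 0.0147), 0.606 for Atf3 (rho 0.564, p = 0.0170), 0.602 for Gdf15 (rho 0.661, p = 0.0185) and 0.543 for Chac1 (rho 0.586, p = 0.0369), by permutation. The other 3 had values below 0: -0.497 for Asns, -0.296 for Atf5 and -0.221 for Phgdh. Without arrays 23 and 27, the 2 farthest from the Ddit3 median, r was 0.698 for Atf4, 0.459 for Trib3, 0.481 for Atf3, 0.598 for Gdf15 and 0.692 for Chac1. These values of r include the differences between doses and runs. The p-values above belong to r. For rho the permutation p was 0.00327 for Atf4, 0.0228 for Trib3, 0.0319 for Atf3, 0.00861 for Gdf15 and 0.0241 for Chac1. Adjusted over the 8 members by Benjamini-Hochberg, the permutation p of r was 0.00328 for Atf4. It was 0.0369 for Trib3, Atf3 and Gdf15 and 0.0590 for Chac1. For rho the adjusted permutation p was 0.0262 for Atf4, 0.0344 for Gdf15, 0.0482 for Trib3 and Chac1 and 0.0510 for Atf3.

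Each value was then taken as its deviation from the group and run means, fitted as separate terms without their interaction. Differences of the dose effect between runs therefore stay in these deviations. In them, r with Ddit3 was 0.651 for Atf3 (rho 0.650, permutation p = 0.00880) and 0.641 for Atf4 (rho 0.579, permutation p = 0.00986). It was 0.569 for Trib3 (rho 0.468, permutation p = 0.0277) and -0.520 for Atf5 (rho -0.493, permutation p = 0.0473). For Gdf15 and Chac1, r was then 0.209 and 0.245. The p-values above belong to r. For rho the permutation p was 0.0108 for Atf3, 0.0256 for Atf4, 0.0804 for Trib3 and 0.0635 for Atf5. Without arrays 22 and 26, r was 0.386 for Atf3, 0.368 for Atf4 and 0.291 for Trib3, so the first 3 relations rested on those arrays in good part. By run, deviations were taken from the group means of that run alone. In run 2, r was then 0.906 for Atf3, 0.784 for Atf4 and 0.874 for Trib3 (n = 8, exact permutation p = 0.00437, 0.0244 and 0.00429). In run 1 it was -0.433, -0.161 and 0.286 (n = 7). The difference between runs was not tested. Chac1 had the opposite order, with 0.838 in run 1 (exact permutation p = 0.0234) and 0.064 in run 2. Deviations sum to 0 within each group, so they are not freely exchangeable. The permutation p-values computed on deviations, here and below, may therefore be too small. In a limma fit with Ddit3 as a covariate beside group and run, 3 of the 8 members had an unadjusted p under 0.05, where 9.38% of genes did, and none passed after adjustment. The slope was 0.33 (SE 0.11, limma adjusted p = 0.507) for Atf3, 0.12 (SE 0.05, limma adjusted p = 0.529) for Atf4 and 0.21 (SE 0.09, limma adjusted p = 0.529) for Trib3. For each kind of value, 8 relations with Ddit3 were computed. Adjusted over those 8 by Benjamini-Hochberg, the permutation p of r in the 15 deviations was 0.0394 for Atf3 and Atf4. It was 0.0739 for Trib3 and 0.0946 for Atf5. For rho the adjusted permutation p was 0.0868 for Atf3, 0.102 for Atf4 and 0.161 for Trib3 and Atf5. Within run 2 the adjusted permutation p of r was 0.0175 for Atf3 and Trib3 and 0.0651 for Atf4. That of rho was 0.0179 for Atf3, 0.0615 for Trib3 and 0.0980 for Atf4. For Chac1 within run 1 the adjusted permutation p was 0.187 for r and 0.190 for rho. Among the other members, the deviations of Trib3 and Atf4 correlated at 0.794 and those of Asns and Phgdh at 0.708, given as descriptions.

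**Figure D4:**
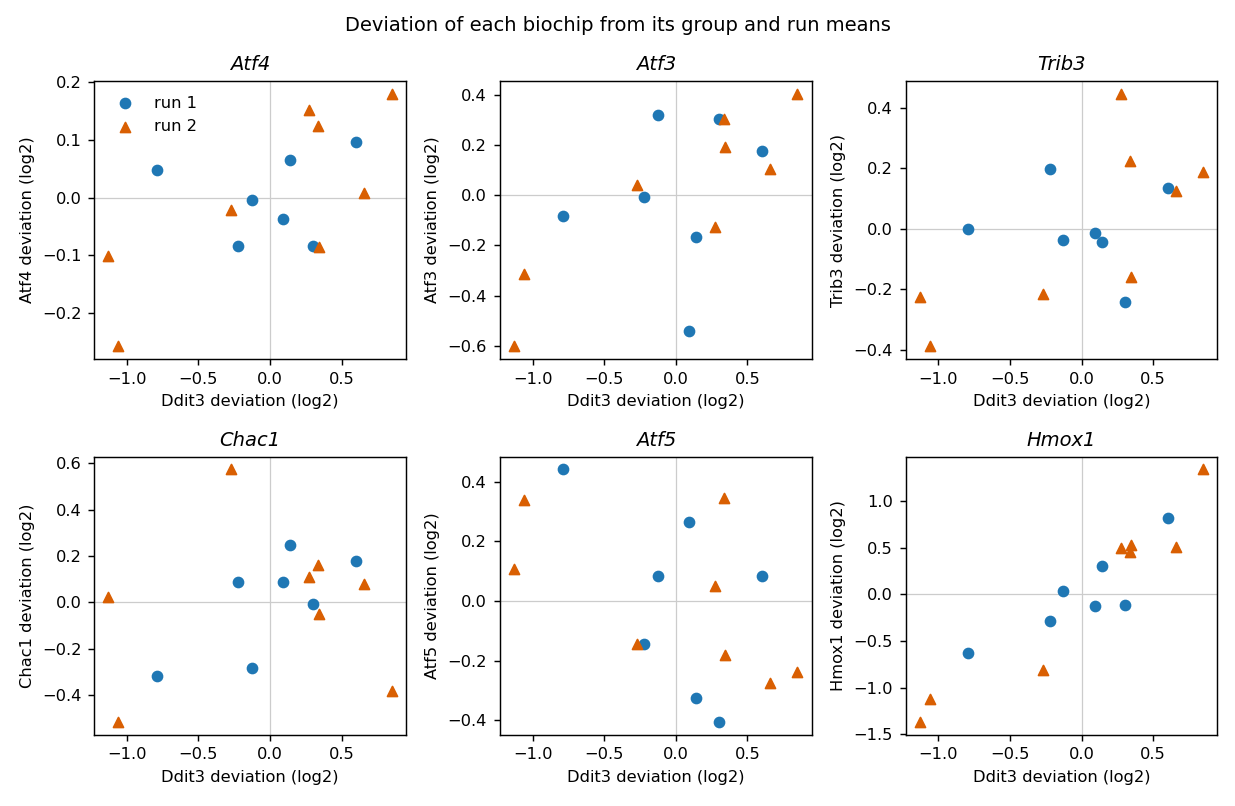
Deviation of each biochip from its group and run means in Ddit3 (x axis, log2 units) and in another gene (y axes, log2 units), 1 point per biochip, by run (colour and symbol). Group and run means were fitted as separate terms, without their interaction. Over the 15 biochips r is 0.651 for Atf3, 0.641 for Atf4, 0.569 for Trib3 and 0.939 for Hmox1, the gene most like Ddit3. Within run 2 alone r is 0.906 for Atf3, 0.784 for Atf4 and 0.874 for Trib3. These run 2 values use deviations from the group means of that run, which are not the points drawn.

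Of all 14505 other genes, 1 passed in that fit (0.00689%), and it was no member: Hmox1, which encodes heme oxygenase 1, the heme-degrading enzyme induced by oxidative stress. Its slope on Ddit3 was 1.16 log2 units per log2 unit of Ddit3 (SE 0.12, limma adjusted p = 0.00471). Hmox1 values were 8.34 and 7.93 in the DMSO biochips of run 1 and 9.54, 9.57 and 7.96 in those of run 2, and at 100 µM they were 8.67 and 7.89 in run 1 and 7.53 and 9.41 in run 2. The 10 µM values had a lowest of 7.64, a median of 8.32 and a highest of 10.65, in array 23. In run 2, arrays 22 and 26 were the lowest of their groups in both genes, and array 23 was the highest in both. The order was not the same throughout: Ddit3 was higher in DMSO array 11 than in 10 and in 20 than in 21, and for Hmox1 both orders were the reverse. Over the deviations r was 0.939 (rho 0.950, permutation p = 1e-05, the smallest that the permutations can give) and 0.886 without arrays 22 and 26. With deviations from the group means of each run alone, r within run 1 was 0.806 (n = 7, exact permutation p = 0.0389). It was 0.479 there without arrays 14 and 16. Within run 2 it was 0.967 (n = 8, exact permutation p = 0.00124) and 0.957 without arrays 22 and 26. In the values as they stand, r was 0.775 over the 15 arrays (rho 0.739, permutation p = 0.000750) and 0.628 without arrays 23 and 27. By run it was 0.532 in run 1 (n = 7, exact permutation p = 0.219) and 0.772 in run 2 (n = 8, exact permutation p = 0.0248). The p-values belong to r, and for rho over the 15 values as they stand the permutation p was 0.00223. Hmox1 was picked for its relation with Ddit3 among all 14505 genes on these same arrays. Its permutation p-values are not adjusted for that choice and are no separate support. In fits of run 1 or run 2 alone, its limma adjusted p was 0.789 and 0.887. Hmox1 did not pass against DMSO, with 0.23 (SE 0.46) at 10 µM and -0.19 (SE 0.51) at 100 µM (limma adjusted p = 0.965 for both).

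The call of Hmox1 was lost without array 26 (limma adjusted p = 0.0934), while the slope stayed between 1.07 and 1.23 over the 15 fits that left out 1 array. Without arrays 15, 23 and 24 the slope was 0.98 (limma adjusted p = 0.126). Array 23 had the highest Hmox1 value along with the highest macrophage, hepatocyte, stellate cell and endothelial marker levels given above, and the part of these cell types in the relation was not tested. The next genes in likeness to Ddit3 were Zg16b, Cpne5, Stra6 and Or56b6b, with r of 0.909, 0.900, 0.878 and 0.858 over the deviations of 15 arrays, and none passed (limma adjusted p = 0.453 to 0.492). Their mean log2 levels were low, 3.45, 4.29, 5.22 and 3.16, all below the median of probe set means, 5.45. The slopes on Ddit3 were small, 0.21, 0.14, 0.19 and 0.20.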

How the data were processed

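The authors deposited log2 expression values of 29214 probe sets. The submitters' processing notes name RMA and Partek, with versions, order and settings not given in the sources used here. Of these probe sets, 15310 had 1 gene symbol in the platform annotation, and the probe set of highest mean was kept for each gene, which left 14506 genes. Each member had 1 probe set. No background or detection value was used.

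Values were fitted with limma 3.58.1 in R 4.3.3 on all 15 arrays, with group and title number run as terms. Further fits added the group by run interaction or the Ddit3 value. Calls required p under 0.05 after Benjamini-Hochberg adjustment across every gene tested. Permutation tests were two-sided, exact within runs or, for correlations over 15 arrays, with 100000 permutations. Treatment labels were permuted in R 4.3.3 and correlations in numpy 2.4.6, with ranks from scipy 1.17.1. The code was tested on simulated data. Arrays have no read depth, so their number limits the precision.

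All members and gene lists were chosen with earlier results of these data known. Named by rule were all 9 members, from each further list the gene of lowest p per dose where none was called, and the 5 genes of highest correlation with Ddit3 in deviations. Promoter sequences are those of RefSeq, assembly GRCr8. Alternatives left out each array, the 3 arrays of lowest correlation or 1 run, renewed the quantile normalization, weighted arrays, left out dim genes or the run term, used a mean-variance trend with a robust prior, and used every probe set with 1 symbol.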

Additional observations from a re-analysis of the deposited data

Results flagged for a closer look

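Among the 27 sets of 1 member in 1 group, 1 held an array far from the others: Atf5 at 10 µM, with 7.97 in array 12 of run 1, where the nearest of the other 5 values was 8.38 (gap over range 0.700, critical value 0.625). Chance gives such a gap in about 1 of 20 sets. Atf5 was not called at 10 µM.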

How the results depend on the processing

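No member was called against DMSO, or between doses, under any alternative run. No paired analysis was possible because no title number occurs in more than 1 group. Each member had 1 probe set, so fits with another probe set of a member gave no value. Where a value below differs from the pooled one, the cause was not tested, other than that fewer arrays enter a fit.

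The count of genes called over the genome moved more. At 10 µM it was 0, and 7 in run 2 alone, 1 after renewed quantile normalization, 1 with array weights and 0 to 1 with 1 array left out. At 100 µM it was 0, and 1 in run 2 alone. Between runs 79 genes were called, 191 with weights and 37 to 129 with 1 array left out. Members called between runs were 1, and 2 with weights, 0 without the 3 arrays of lowest correlation and 0 to 2 with 1 array left out (without array 23, Phgdh also passed). The 10 µM effect differed between runs for 6 genes, and for 3 with renewed quantile normalization, 2 without dim genes, 17 with weights, 2 with a trend and robust prior, 3 without the 3 arrays and 2 to 116 with 1 array left out. At 100 µM it was 1, then 4 with weights, 5 without the 3 arrays and 0 to 22. The relation with Ddit3 was called for 1 gene, for 0 in run 1 or run 2 alone, 13 with no group or run term, 0 without the 3 arrays and 0 to 2 with 1 array left out.

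Signs turned as follows. At 10 µM Asns was 0.18 in run 1, 0.030 with weights and 0.10 without the 3 arrays (-0.19 to 0.018 with 1 left out), Atf3 -0.078 and Slc3a2 0.060 in run 1. At 100 µM Atf5 was 0.024 and Trib3 0.16 in run 1, Trib3 0.017 with renewed normalization (-0.13 to 0.081) and Phb1 0.040 in run 2. Between doses, run 1 gave Asns -0.20, Atf4 0.067 and Ddit3 0.39, run 2 gave Atf3 -0.42 and Phgdh 0.028, weights gave Asns -0.087, and without the 3 arrays Asns was -0.14, Ddit3 0.019 and Atf5 -0.043. With 1 array left out these ran from -0.084 to 0.084 for Asns, -0.080 to 0.26 for Atf3, -0.039 to 0.035 for Atf4 and -0.40 to 0.26 for Ddit3. Between runs Atf3 was 0.021 with renewed normalization (-0.10 to 0.12), and Asns 0.0082 with weights and 0.072 without the 3 arrays (-0.13 to 0.019).

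The run difference of the 10 µM effect turned for Atf4, -0.020 with weights and -0.0117 without the 3 arrays (-0.10 to 0.11), and that at 100 µM for Ddit3, 0.26 without the 3 arrays (-0.99 to 0.79), Asns (-0.18 to 0.031) and Phgdh (-0.23 to 0.040). The slope on Ddit3 turned in run 1 for Atf3 (-0.28), Atf4 (-0.031) and Phgdh (0.024), in run 2 for Phgdh (0.0022), with weights for Phgdh (0.026), and without the 3 arrays for Phgdh (0.065) and Asns (0.033). With 1 array left out it was -0.040 to 0.24 for Chac1 and -0.083 to 0.025 for Phgdh. For Hmox1 the slope was 0.83 (limma adjusted p = 0.0760) with no group or run term, and its adjusted p was 0.789 and 0.887 within each run.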
